A study of Mus musculus with 8 samples.

Results

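The change in RNA between meiotic and post-meiotic cells of wild-type (WT) mouse testis is described here. The 4 libraries were chosen by their labels from the 8 of the series, 2 of WT post-meiotic cells and 2 of WT meiotic cells. All 4 came from C57BL/6 males aged 3 to 6 months with the genotype H3.3BWT/WT :Actin Cre WT, in which the histone gene H3f3b is intact. The other 4 libraries are post-meiotic and meiotic cells of H3.3BKO/KO :Actin Cre WT males (KO) of that strain and age, and they enter only through the shared estimate of the spread and where a WT change is set against its KO counterpart. Germ cells were freed from the tubules with collagenase and sorted by sedimentation for 70 min through a gradient of 2% to 4% albumin. The post-meiotic fraction is described as mainly round spermatids with few elongated ones, so the fractions are enriched and not pure. RNA is said to come from the tubules of 1 mouse, but no label says which libraries share an animal, so every p-value measures the spread between these libraries only.

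In the long prophase of meiosis, spermatocytes pair and recombine their chromosomes, make piRNAs from dedicated clusters and silence the X and Y chromosomes. After both divisions the haploid round spermatids build an acrosome, which carries the enzymes and receptors of fertilization, and a flagellum wrapped in dense fibres and a fibrous sheath. Later their histones give way to transition proteins and then to protamines, and many of the messenger RNAs for this are made early and stored until they are translated.

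Total RNA was sequenced and reads were counted per gene, per piRNA cluster and per repeat family. Gene counts were 66734320 and 60539439 in the WT post-meiotic libraries and 63039893 and 58535698 in the WT meiotic libraries. Levels are CPM, counts set to a common library total, with library sizes scaled by trimmed means (TMM). Changes are log2 of WT post-meiotic over WT meiotic cells with their standard error. Within a group the 2 libraries agreed closely (Pearson correlation of log CPM across genes 0.995 in post-meiotic and 0.996 in meiotic cells), and the first principal component of all 8 libraries, 72.7% of the variance, set the stages apart. Because these are bulk fractions, fewer cells of a type and less RNA per cell cannot be told apart.

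Of 29880 annotated genes 20412 had enough reads to be tested. A gene is said here to have risen or fallen at an edgeR adjusted p under 0.01, which 6047 genes (29.6% of those tested) and 6615 genes (32.4%) did. With a log2 change over 1 as well, 2239 genes (11.0%) were called higher and 2950 (14.5%) called lower in post-meiotic cells. Library totals without TMM factors lowered the median change of all genes by 0.137 (log2) and gave 1565 called higher and 3557 called lower, so the split between the directions rests on the scaling.

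The 4 marker genes of the fractions moved with their labels. Prm1, which encodes a protamine, had 5729.8 and 5851 CPM in WT post-meiotic cells, against 1735 and 2035 CPM in WT meiotic cells (log2 1.62 ± 0.11, edgeR adjusted p = 1.49e-05). Tnp1, the gene of a transition protein, had 5281 and 5257 CPM in WT post-meiotic cells, against 1838 and 2045 CPM in WT meiotic cells (log2 1.44 ± 0.072, edgeR adjusted p = 1.32e-09). Post-meiotic libraries were high for both, and the groups did not overlap, as they did not for 84.9% of all genes tested. Hist1h1t, the linker histone of spermatocytes, had 30.0 and 31.4 CPM in WT post-meiotic cells, against 784 and 856 CPM in WT meiotic cells, a 26.7-fold fall (log2 −4.74 ± 0.065, edgeR adjusted p = 3.05e-20). Sycp3, a lateral element protein of the synaptonemal complex, had 66.8 and 69.9 CPM in WT post-meiotic cells, against 231 and 225 CPM in WT meiotic cells (log2 −1.74 ± 0.056, edgeR adjusted p = 6.25e-16). Both were low in each post-meiotic library, while both spermatid genes were read at high levels in the meiotic libraries too. In mm9, the build of the files, these genes are Prm1 (ENSMUSG00000022501, chromosome 16, 10796419 to 10796979), Tnp1 (ENSMUSG00000026182, chromosome 1, 73061657 to 73062473), Hist1h1t (ENSMUSG00000036211, chromosome 13, 23787680 to 23788588) and Sycp3 (ENSMUSG00000020059, chromosome 10, 87922314 to 87935981).

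Rises and falls differed in size among well expressed genes. Of 4777 genes with at least 50 CPM in the higher stage, 557 were called higher and 675 called lower. None of them rose by more than a log2 of 2, and Osgin1, an oxidative stress response gene named after its value was seen, rose most (1.96). In contrast, 157 fell below −2, down to Hist1h1t. At a minimum of 10 CPM 10 genes rose and 338 fell beyond that size, with Dcn (4.26), a matrix protein of fibroblasts, the most increased. Without a minimum the numbers were 214 and 623.

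**Figure D1:**
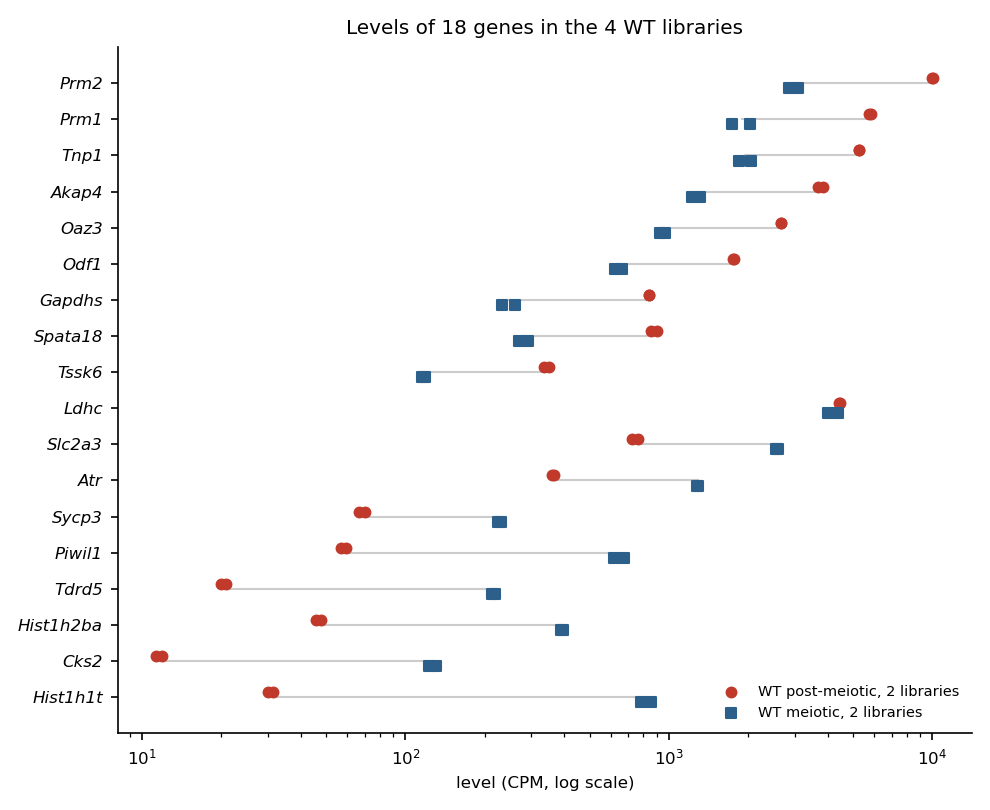
Levels (CPM, log scale) of 18 genes in the 2 WT post-meiotic libraries (red circles) and the 2 WT meiotic libraries (blue squares), with a line between the group means. Genes of the sperm nucleus and tail lie to the right in post-meiotic cells by about the same distance. Those of meiosis and piRNA production lie to the left, Sycp3 and Atr by a like distance and the others shown further, down to Hist1h1t at −4.74 (log2).

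Genes for packing the sperm nucleus rose, 12 of 18, and all 12 were also called higher. Their median change was 1.26, beside 0.01 over all genes. Prm2, the other protamine, held the most reads of any protein-coding gene in the post-meiotic libraries, with 10059.8 and 9929 CPM in WT post-meiotic cells, against 2854 and 3081 CPM in WT meiotic cells (log2 1.75 ± 0.073, edgeR adjusted p = 2.68e-10). Tnp2, the other transition protein gene, had 4272 and 4652 CPM in WT post-meiotic cells, against 1399 and 1687 CPM in WT meiotic cells (log2 1.53 ± 0.16, edgeR adjusted p = 0.000484). The spermatid linker histone H1fnt had 1118 and 1154 CPM in post-meiotic cells against 383 and 425 CPM in meiotic cells (log2 1.49 ± 0.065), the histone variant H2afb1 342 and 352 CPM in post-meiotic cells against 109 and 124 CPM in meiotic cells (log2 1.57 ± 0.09). Spem1, needed in mice for normally shaped sperm and placed in this list, had 731 and 744 CPM in post-meiotic cells against 218 and 235 CPM in meiotic cells (log2 1.70 ± 0.066). These 5 genes were high in both post-meiotic libraries, and the groups did not overlap in any of them, as in 84.9% of all genes tested.

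The 6 genes of this list that fell include the early testis histones. Chromatin regulators of the list moved both ways, since Chd5 (1.18), a remodeler required in mice for histone removal, and the chromodomain protein Cdyl (1.17), both named after their values were seen, were called higher. Hist1h2ba, a testis H2B that enters chromatin in spermatocytes, had 47.8 and 46.0 CPM in WT post-meiotic cells, against 389 and 397 CPM in WT meiotic cells (log2 −3.07 ± 0.053, edgeR adjusted p = 1.23e-19). Its partner Hist1h2aa, a testis H2A, had 49.7 and 49.7 CPM in post-meiotic cells against 150.3 and 168 CPM in meiotic cells (log2 −1.68 ± 0.063). Thus the RNAs of the histone pair were low in post-meiotic cells while those of the proteins that replace histones were high. The ubiquitin ligase Rnf8 (log2 −1.32 ± 0.074) and the chromatin protein Morc3 (log2 −1.45 ± 0.053) were called lower as well. Named after their values were seen, Brdt, the bromodomain reader of acetylated histones, fell by less (−0.19), and so did the acetyltransferase subunit Epc1 (−0.42).

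Genes of the outer dense fibres, the fibrous sheath and the mitochondrial sheath rose almost as a whole, 23 of 24, with 12 called higher and none lower. The median was 1.00, and Fsip2, the other member, did not pass (0.11). Akap4, the X-linked scaffold of the fibrous sheath, had 3687 and 3839 CPM in WT post-meiotic cells, against 1227 and 1317 CPM in WT meiotic cells (log2 1.56 ± 0.05, edgeR adjusted p = 6.28e-16). The major fibre protein Odf1 had 1764 and 1757 CPM in post-meiotic cells against 623 and 662 CPM in meiotic cells (log2 1.46 ± 0.057), and Odf2, a fibre protein also found at centrosomes, had 6975 and 7053 CPM in post-meiotic cells against 3330.1 and 3539 CPM in meiotic cells (log2 1.03 ± 0.047). Odf2 was among the 10 most read genes at both stages. Oaz3, the antizyme of the testis, had 2664 and 2666 CPM in post-meiotic cells against 923 and 964 CPM in meiotic cells (log2 1.50 ± 0.054). Spata18 had 855 and 897 CPM in post-meiotic cells against 271 and 292 CPM in meiotic cells (log2 1.64 ± 0.059), and Smcp, of the mitochondrial capsule, had 349 and 357 CPM in post-meiotic cells against 121 and 123 CPM in meiotic cells (log2 1.53 ± 0.063). Over the whole list the changes ran from 0.11 to 1.76.

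Acrosome genes rose at 22 of 30, but only 4 were called higher, and the median was 0.68. Capza3, the germ cell capping protein of actin, had 386 and 419 CPM in WT post-meiotic cells, against 168 and 187 CPM in WT meiotic cells (log2 1.18 ± 0.059, edgeR adjusted p = 2.18e-12). The actin-like proteins of the sperm head Actl7a (log2 1.06 ± 0.057) and Actl9 (log2 1.12 ± 0.079) were called as well, and so was 4933407P14Rik (log2 1.46 ± 0.071). Gopc, a Golgi protein required for acrosome formation in mice, moved the other way with 13.8 and 13.7 CPM in post-meiotic cells against 66.8 and 66.8 CPM in meiotic cells (log2 −2.28 ± 0.064, edgeR adjusted p = 8.05e-17). Smap2 (−0.35) and Pick1 (−0.21), which like Gopc act in the traffic of vesicles to the acrosome and were named after their values were seen, fell by much less. The protease Acr (0.35) and its binding protein Acrbp (0.30), named in the same way, rose by little.

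Genes for binding and fusing with the egg rose at 17 of 24, with 7 called higher and a median of 0.75. Ace, the peptidase whose testis form is needed for fertility, had 915 and 969.7 CPM in WT post-meiotic cells, against 344 and 359 CPM in WT meiotic cells (log2 1.42 ± 0.051, edgeR adjusted p = 3.16e-15). Calr3, a testis calreticulin, had 178 and 214 CPM in post-meiotic cells against 76.9 and 91.2 CPM in meiotic cells (log2 1.22 ± 0.10), and the protease-like Prss37 225 and 287 CPM in post-meiotic cells against 94.1 and 126 CPM in meiotic cells (log2 1.22 ± 0.19). Adam1a, a sperm surface protein, had 206 and 208 CPM in post-meiotic cells against 93.2 and 99.1 CPM in meiotic cells (log2 1.11 ± 0.049), while Izumo3, a relative of the fusion protein Izumo1, had 198 and 207 CPM in post-meiotic cells against 92.8 and 103 CPM in meiotic cells (log2 1.05 ± 0.053). Of the 4 that fell, Adam2 (−0.52), Ly6k (−0.47) and Clgn (−0.34), sperm surface proteins and a chaperone named after their values were seen, did so by little, and Tex101 was called lower. This surface protein of germ cells, which guides the maturation of sperm ADAM proteins, had 51.0 and 52.2 CPM in post-meiotic cells against 229 and 233 CPM in meiotic cells (log2 −2.16 ± 0.056, edgeR adjusted p = 3.19e-17).

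Genes of energy metabolism in sperm were mixed, with 19 of 29 members risen, 8 fallen and a median of 0.56. Several glycolytic enzymes rose. Gapdhs, the sperm glyceraldehyde-3-phosphate dehydrogenase, had 840.3 and 837 CPM in WT post-meiotic cells, against 261 and 233 CPM in WT meiotic cells (log2 1.76 ± 0.064, edgeR adjusted p = 4.69e-13). Gpi1 (log2 1.58 ± 0.056), the hexokinase Hk1 (log2 1.34 ± 0.046), the pyruvate kinase Pkm2 (log2 1.23 ± 0.052) and the phosphoglycerate kinase Pgk2 (log2 1.21 ± 0.05) were called higher too. Oxct2a, which lets sperm use ketone bodies, had 289 and 285 CPM in post-meiotic cells against 81.8 and 87.8 CPM in meiotic cells (log2 1.76 ± 0.067), and its near-identical copy Oxct2b changed by 1.75. Since unique alignments cannot settle reads shared by these copies, their separate levels are uncertain.

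Several mitochondrial and transport genes of germ cells fell in the same list. The glucose transporter Slc2a3 had 761 and 724 CPM in WT post-meiotic cells, against 2541 and 2583 CPM in WT meiotic cells (log2 −1.79 ± 0.048, edgeR adjusted p = 4.18e-17). Cyct, the testis cytochrome c, had 44.9 and 43.0 CPM in post-meiotic cells against 108 and 112 CPM in meiotic cells (log2 −1.33 ± 0.058), and Slc25a31, the testis ADP/ATP carrier, 39.5 and 39.2 CPM in post-meiotic cells against 87.2 and 92.6 CPM in meiotic cells (log2 −1.19 ± 0.061). Ldhc, the testis lactate dehydrogenase, did not pass, with 4427 and 4468 CPM in post-meiotic cells against 4022 and 4381 CPM in meiotic cells (log2 0.08 ± 0.047, edgeR adjusted p = 0.126). Its sign turned with library totals (−0.05). Hence these enzymes of glycolysis were higher in post-meiotic cells, while this glucose transporter and the testis cytochrome c were lower.

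Kinases and phosphatases of the testis rose at 12 of 24, with 7 called higher and 3 lower. The sperm kinases Tssk6, with 336 and 350.2 CPM in post-meiotic cells against 118 and 116 CPM in meiotic cells (log2 1.55 ± 0.11), Tssk3 (log2 1.38 ± 0.051) and Tssk2 (log2 1.28 ± 0.058) led, followed by the calmodulin kinase Camk4 (log2 1.23 ± 0.065). Pbk, a mitotic kinase of dividing cells, fell with 45.3 and 43.2 CPM in post-meiotic cells against 158 and 164 CPM in meiotic cells (log2 −1.86 ± 0.054), and so did Stk31 (log2 −1.52 ± 0.062), a partner of PIWI proteins, and the kinase Tbk1 (log2 −1.08 ± 0.09). The others that fell, Styx (−0.34) and Csnk2a2 (−0.17), were named after their values were seen. The list median was 0.11 and −0.02 with library totals, so no direction is given for the list as a whole.

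Of 24 transcription regulators active in spermatids 16 rose and 6 fell, with a median of 0.49. Spz1, a testis leucine zipper factor, had 2416 and 2452 CPM in WT post-meiotic cells, against 828 and 897 CPM in WT meiotic cells (log2 1.50 ± 0.052, edgeR adjusted p = 1.93e-15). Hmgb4, a testis HMG-box protein, had 741 and 805 CPM in post-meiotic cells against 283 and 324 CPM in meiotic cells (log2 1.35 ± 0.072). Of the partners of CREM, the activator of many spermatid genes, Fhl5 (log2 1.08 ± 0.09) and Kif17 (log2 1.26 ± 0.049) were called higher. Crem itself rose by 0.41, a value named after it was seen. Mybl1, the master activator of pachytene genes, fell with 80.1 and 79.8 CPM in post-meiotic cells against 203 and 202 CPM in meiotic cells (log2 −1.34 ± 0.057), and so did the histone demethylase Kdm3a (log2 −1.08 ± 0.049), which in mice is needed for protamine expression.

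The axoneme and the transport systems that build the tail did not follow the fibres and the sheath. Of 37 axoneme genes 17 rose and 12 fell (median 0.13, and −0.01 with library totals). The filament protein Tekt2 had 121 and 122 CPM in post-meiotic cells against 56.8 and 42.8 CPM in meiotic cells (log2 1.28 ± 0.22, edgeR adjusted p = 0.0047) and the testis tubulin Tuba8 329 and 423 CPM in post-meiotic cells against 137 and 186 CPM in meiotic cells (log2 1.22 ± 0.20). The dynein heavy chain Dnahc8 was among the 10 most read genes of meiotic cells and fell, with 2542 and 2161 CPM in post-meiotic cells against 6142 and 5018 CPM in meiotic cells (log2 −1.25 ± 0.20, edgeR adjusted p = 0.00391). Dnahc8 lost its call when any 1 of the 4 libraries was left out, Tekt2 when any but WT meiotic replicate 1 was, and Tuba8 without WT post-meiotic replicate 2. Intraflagellar transport and manchette genes fell at 13 and rose at 8 of 24 (median −0.17), led by Ift20 (log2 −1.62 ± 0.062) and Ift80 (log2 −1.42 ± 0.054). The motor Kif17 was the only one of that list called higher.

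Among 18 channels and pumps of the sperm tail 9 rose and 6 fell (median 0.22). Atp1a4, the sodium pump of sperm, had 1357 and 1456 CPM in WT post-meiotic cells, against 529 and 564 CPM in WT meiotic cells (log2 1.36 ± 0.049, edgeR adjusted p = 3.45e-15), and Catsper1, the pore subunit of the calcium channel, 71.5 and 74.4 CPM in post-meiotic cells against 35.9 and 36.7 CPM in meiotic cells (log2 1.01 ± 0.058). Pkd2l1, a polycystin channel, was far lower with 3.24 and 3.21 CPM in post-meiotic cells against 30.9 and 29.7 CPM in meiotic cells (log2 −3.23 ± 0.085, edgeR adjusted p = 3.3e-17). Proteins that store or translate messenger RNA fell at 17 and rose at 6 of 29, with 7 called lower, none higher and a median of −0.36. Gmcl1, a germ-cell-less homologue placed in that list, fell most (52.9 and 51.3 CPM in post-meiotic cells against 314 and 288 CPM in meiotic cells, log2 −2.53 ± 0.058). The RNA-binding proteins Tsn (log2 −1.75 ± 0.064), its partner Tsnax (log2 −1.33 ± 0.073), Celf1 (log2 −1.26 ± 0.068) and Qk (log2 −1.19 ± 0.051) were called lower as well.

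**Figure D2:**
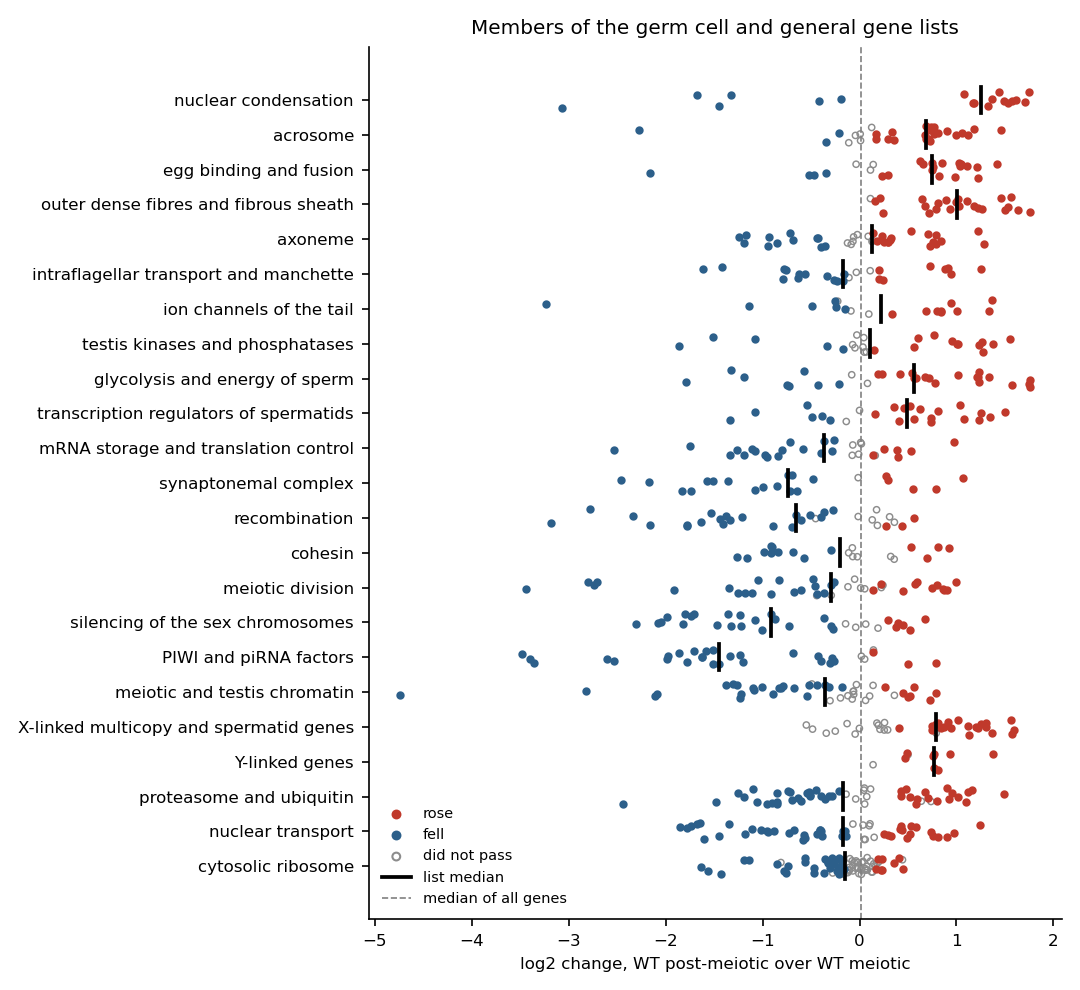
Log2 change, WT post-meiotic over WT meiotic, of each tested member of 23 gene lists, with the list median (black bar) and the median of all genes (dashed line, 0.01). Lists of the sperm nucleus, sheath and acrosome lie to the right, and those of meiosis and PIWI factors to the left with long tails, to a median of −1.45.

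Promoters were read for genes called higher and genes called lower. For all 17152 protein-coding genes tested, the 250 bases before the annotated 5′ end (GENCODE vM1 on mm9) were searched on both strands for TGACNTCA, a CRE-like element, for the palindrome TGACGTCA, which is also a CRE-like match, and for TAACGG, the core recognized by MYB proteins. A CRE-like match stood in 7.31% of all promoters. It stood in 15.4% of the promoters of genes called higher (283 of 1832), in 4.68% of those called lower (123 of 2629) and in 6.67% of those not called. Among genes with at least 50 CPM the share was 23.3% of 528 called higher, 5.49% of 656 called lower and 6.95% of 3481 not called. The palindrome, one of the forms of the CRE-like motif, showed no such order, with 1.91% of genes called higher, 2.02% of those called lower and 2.23% of all. TAACGG stood in 1.26% of genes called higher (23), 3.84% of those called lower (101) and 2.85% of all. These are counts of letters. Base composition was not matched, and whether any factor binds there was not measured.

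The excess of CRE-like matches lay near the start. In genes called higher 5.46% had a match 8 to 57 bases before the 5′ end, 6.06% at 58 to 107 and 3.22% at 108 to 157. In genes not called these shares were 2.62%, 1.73% and 1.10%. Further out, at 158 to 207 bases, the share was 0.82% in genes called higher and 0.94% in those not called, and at 208 to 250 bases 0.93% and 0.68%. By list, 10 of 30 acrosome genes, 7 of 24 genes of the fibres and sheath and 5 of 24 genes of egg binding held a match. It stood at 3 of 18 genes of the nuclear list (Tnp1, Prm3 and Hils1), but not at Prm1, Prm2 or Tnp2. Kinases and transcription regulators held it at 3 of 24 each, energy genes at 3 of 29 and tail channels at 1 of 18. The axoneme had it at 1 of 37 genes, and messenger storage and PIWI factors at none of 29 each. Lists that did not rise could hold it as well, such as intraflagellar transport and manchette (4 of 24).

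**Figure D3:**
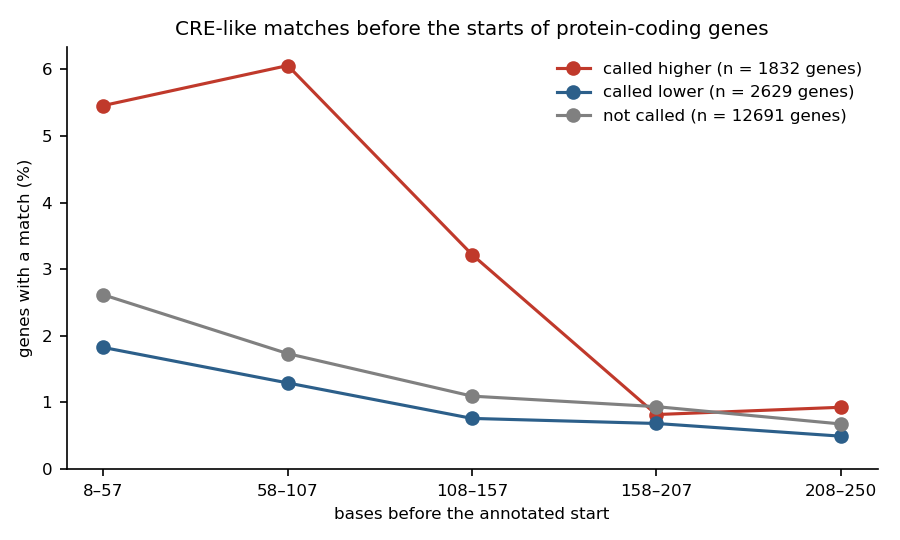
Share of protein-coding genes (%) with a CRE-like match in each stretch before the annotated start, for 1832 genes called higher, 2629 called lower and 12691 not called in WT post-meiotic cells. Genes called higher stand above the other groups up to 157 bases (6.06% at 58 to 107), with 0.93% at 208 to 250 bases beside 0.68% of genes not called and 0.49% of those called lower.

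The 160 bases before the 5′ end are shown for 6 genes called higher that hold a CRE-like match, with the match in capitals. They come from the lists of the nucleus (Tnp1, Prm3), the tail (Smcp, Akap4, Gapdhs) and the kinases (Tssk2). Their changes were 1.44, 1.33, 1.53, 1.56, 1.76 and 1.28. In mm9 the stretches are chr1:73062474-73062633 on the minus strand for Tnp1, chr16:10791007-10791166 (minus) for Prm3 and chr3:92392897-92393056 (minus) for Smcp. The others are chrX:6644485-6644644 (plus) for Akap4, chr7:31528701-31528860 (minus) for Gapdhs and chr16:17898570-17898729 (plus) for Tssk2. The matches begin 94, 61, 75 and 39 bases before the start in Tnp1, Prm3, Smcp and Akap4, at 94 and 76 bases in Gapdhs and at 58 in Tssk2.
Tnp1: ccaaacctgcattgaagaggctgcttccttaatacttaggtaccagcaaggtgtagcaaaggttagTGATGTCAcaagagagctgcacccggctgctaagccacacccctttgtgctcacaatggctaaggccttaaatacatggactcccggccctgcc
Prm3: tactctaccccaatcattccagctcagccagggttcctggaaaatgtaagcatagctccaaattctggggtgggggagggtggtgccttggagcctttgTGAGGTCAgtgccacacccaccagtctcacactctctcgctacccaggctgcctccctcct
Smcp: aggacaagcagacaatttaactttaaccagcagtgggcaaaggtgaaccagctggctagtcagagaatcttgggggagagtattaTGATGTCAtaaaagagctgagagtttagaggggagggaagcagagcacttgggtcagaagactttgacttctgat
Akap4: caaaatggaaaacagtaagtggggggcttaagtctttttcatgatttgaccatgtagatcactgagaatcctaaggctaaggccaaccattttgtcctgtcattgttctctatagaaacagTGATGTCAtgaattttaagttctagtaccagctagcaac
Gapdhs: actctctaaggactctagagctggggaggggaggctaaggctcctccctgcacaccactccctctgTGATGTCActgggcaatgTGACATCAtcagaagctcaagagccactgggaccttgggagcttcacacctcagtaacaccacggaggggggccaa
Tssk2: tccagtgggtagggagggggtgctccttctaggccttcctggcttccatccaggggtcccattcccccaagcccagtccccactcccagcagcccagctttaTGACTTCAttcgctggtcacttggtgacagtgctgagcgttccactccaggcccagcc

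For comparison, 2 genes called lower that hold TAACGG are shown in the same way, a PIWI protein and a synaptonemal protein. They are Piwil1 at chr5:129241961-129242120 (plus strand, match 139 bases before the start) and Sycp1 at chr3:102740024-102740183 (minus, 33 bases). Their changes were −3.48 and −1.07. Neither stretch carries a CRE-like match in the searched window, while 12 of 207 genes of the meiotic lists carry TAACGG (5.80%) and 9 of 207 a CRE-like match (4.35%).
Piwil1: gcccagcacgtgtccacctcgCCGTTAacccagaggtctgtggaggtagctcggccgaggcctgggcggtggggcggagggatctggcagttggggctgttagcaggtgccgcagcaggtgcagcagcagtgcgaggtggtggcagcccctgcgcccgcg
Sycp1: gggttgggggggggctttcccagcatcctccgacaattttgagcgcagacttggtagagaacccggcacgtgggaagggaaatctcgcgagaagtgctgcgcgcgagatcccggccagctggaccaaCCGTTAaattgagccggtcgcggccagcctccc

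Genes of the synaptonemal complex fell at 15 of 21, with 8 called lower and a median of −0.74. Tex12, a central element protein, had 3.69 and 3.48 CPM in WT post-meiotic cells, against 19.8 and 19.7 CPM in WT meiotic cells (log2 −2.46 ± 0.092, edgeR adjusted p = 5.35e-15). Hormad1, which marks unpaired axes, had 34.9 and 35.2 CPM in post-meiotic cells against 127 and 123 CPM in meiotic cells (log2 −1.83 ± 0.073), and the lateral element protein Sycp2 241 and 247 CPM in post-meiotic cells against 734 and 721 CPM in meiotic cells (log2 −1.58 ± 0.056). In contrast Syce2, another central element protein, rose with 164 and 174 CPM in post-meiotic cells against 79.3 and 82.3 CPM in meiotic cells (log2 1.07 ± 0.049, edgeR adjusted p = 1.1e-13). Tex15 (0.79), Syne2 (0.56), Tex11 (0.30) and Syce3 (0.27), named after their values were seen, were the others that rose, so members of the list moved in both directions.

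Recombination genes fell at 21 of 31, with 13 called lower and none higher (median −0.65). Ccnb1ip1, a crossover ligase, had 1.30 and 1.20 CPM in post-meiotic cells against 11.3 and 11.6 CPM in meiotic cells (log2 −3.19 ± 0.13, edgeR adjusted p = 2.87e-14). Spata22 (log2 −2.78 ± 0.10), a partner of MEIOB on single-stranded DNA, the mismatch repair protein Mlh3 (log2 −2.33 ± 0.064), the nuclease subunit Eme1 (log2 −2.16 ± 0.12) and the helicase Hfm1 (log2 −1.78 ± 0.068) followed. The 3 that rose, named after their values were seen, were the recombinase Dmc1 (0.57), Mei1 (0.44) and Brip1 (0.28). Cohesin genes were split, 10 fallen and 4 risen of 20, with 2 called lower (10%, beside 14.5% of all genes) and none higher. The shugoshins Sgol2 (log2 −1.26 ± 0.059) and Sgol1 (log2 −1.16 ± 0.14), protectors of centromeric cohesion, were called lower, while the meiotic kleisin Rec8 rose with 91.0 and 87.1 CPM in post-meiotic cells against 48.0 and 45.8 CPM in meiotic cells (log2 0.92 ± 0.055). The other 3 that rose, the cohesin subunits Smc3 (0.81), Stag2 (0.69) and Rad21 (0.53), were named after their values were seen.

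Of 39 cell cycle genes of the meiotic divisions 20 fell and 11 rose, with 10 called lower and none higher. Cks2, a cyclin kinase subunit required for the first division in mice, had 11.9 and 11.3 CPM in WT post-meiotic cells, against 122 and 131 CPM in WT meiotic cells (log2 −3.45 ± 0.066, edgeR adjusted p = 5.43e-19). Fbxo43, an inhibitor of the anaphase-promoting complex, had 10.3 and 9.59 CPM in post-meiotic cells against 69.4 and 70.0 CPM in meiotic cells (log2 −2.81 ± 0.072). The kinase Cdk2 had 13.0 and 12.9 CPM in post-meiotic cells against 86.1 and 86.6 CPM in meiotic cells (log2 −2.74 ± 0.064) and its cyclin Ccne2 13.8 and 13.8 CPM in post-meiotic cells against 92.3 and 88.1 CPM in meiotic cells (log2 −2.71 ± 0.075). The spindle checkpoint genes Mad2l1 (log2 −1.92 ± 0.10) and Bub3 (log2 −1.34 ± 0.057) were called lower too. Ccna1, the germ cell cyclin A, rose slightly with 196 and 189 CPM in post-meiotic cells against 137 and 146 CPM in meiotic cells (log2 0.45 ± 0.05).

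Genes that silence the sex chromosomes fell at 21 and rose at 6 of 31, with 15 called lower, none higher and a median of −0.92. Atr, the kinase that spreads the silencing mark, had 365 and 359 CPM in WT post-meiotic cells, against 1275 and 1292 CPM in WT meiotic cells (log2 −1.83 ± 0.052, edgeR adjusted p = 8.61e-17), its activator Topbp1 36.2 and 36.3 CPM in post-meiotic cells against 147 and 141 CPM in meiotic cells (log2 −1.99 ± 0.066), and H2afx, the histone it phosphorylates, 49.1 and 54.5 CPM in post-meiotic cells against 258 and 255 CPM in meiotic cells (log2 −2.31 ± 0.094). The checkpoint clamp gene Rad1 (log2 −2.08 ± 0.098) and the heterochromatin protein gene Cbx1 (log2 −2.05 ± 0.071) were called lower as well. Each of these 5 was lower in both post-meiotic libraries. Of the 6 that rose, Ube2a rose most (log2 0.68 ± 0.087).

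Of 43 genes of meiotic and testis chromatin 23 fell and 7 rose, with 12 called lower. H3f3b, one of the genes of histone H3.3 and the gene removed in the KO, had 237 and 217 CPM in WT post-meiotic cells, against 568 and 554 CPM in WT meiotic cells (log2 −1.30 ± 0.064, edgeR adjusted p = 1.28e-11), and H3f3a, the other H3.3 gene, did not pass (−0.12). The maintenance methyltransferase Dnmt1 fell with 23.4 and 22.1 CPM in post-meiotic cells against 99.3 and 94.0 CPM in meiotic cells (log2 −2.09 ± 0.071), while Dnmt3l, its germ cell relative named after its value was seen, rose (0.79). The H3K4 methyltransferase Mll2 had 8.79 and 8.40 CPM in post-meiotic cells against 70.1 and 51.3 CPM in meiotic cells (log2 −2.82 ± 0.14).

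PIWI proteins and their partners fell at 25 of 31, with 19 called lower and none higher, and their median of −1.45 was the lowest of the germ cell lists. Piwil1 (MIWI), the PIWI protein of pachytene cells and spermatids, had 59.2 and 56.8 CPM in WT post-meiotic cells, against 676 and 620.3 CPM in WT meiotic cells (log2 −3.48 ± 0.062, edgeR adjusted p = 8.01e-19). Tdrd5 had 20.9 and 19.9 CPM in post-meiotic cells against 219 and 214 CPM in meiotic cells (log2 −3.40 ± 0.062) and Tdrd1 47.4 and 46.5 CPM in post-meiotic cells against 494 and 468 CPM in meiotic cells (log2 −3.36 ± 0.062), both Tudor scaffolds of germ granules. Piwil2 (MILI) had 68.8 and 63.5 CPM in post-meiotic cells against 389.6 and 377 CPM in meiotic cells (log2 −2.53 ± 0.072), and the mitochondrial nuclease-like Pld6 11.4 and 9.32 CPM in post-meiotic cells against 62.2 and 64.5 CPM in meiotic cells (log2 −2.61 ± 0.077). Each of these 5 fell at least 5.79-fold, and the groups did not overlap, as in 84.9% of all genes tested. Named after their values were seen, the members that rose were Tex15 (0.79), Gtsf1 (0.50) and Tdrd7 (0.14), and Mael (0.05) did not pass.

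Precursor transcripts of piRNAs were lower in post-meiotic cells as well. Reads on the 402 piRNA clusters with enough counts came to 4814 and 4658 CPM in the WT post-meiotic libraries, against 42840 and 39790.5 CPM in the WT meiotic libraries. At an adjusted p under 0.01 and a log2 change over 0.5, 152 of the 402 clusters (37.8%) were called lower and 46 (11.4%) called higher. The 46 became 30 without WT meiotic replicate 1 and 28 with DESeq2. Of the 107 clusters with at least 1 RPKM (CPM per kilobase) in meiotic cells 89 were called lower and 4 higher, with a median change of −3.00, and 41 fell more than 10-fold. The 295 clusters below that level had 63 called lower, 42 called higher and a median of −0.11. Since the level in meiotic cells is also the base of the change, a split by it favours decreases. By the mean of all 8 libraries instead, a split chosen after the data were seen, 102 clusters reached 1 RPKM, of which 83 were called lower and 6 higher (median −2.99). Of these 102, 100 were also in the first split, so this split is nearly the same set and does not remove that bias.

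Single clusters (mm9) show how uneven the change was. The longest of the 5 strongest clusters, chr12:99617211-99694189, which overlaps Kcnk10, had 2.01 and 1.93 RPKM in post-meiotic cells against 39.5 and 36.3 RPKM in meiotic cells (log2 −4.27 ± 0.075). Cluster chr6:127728022-127792044, with no annotated gene, had 2.21 and 2.11 RPKM in post-meiotic cells against 42.2 and 39.4 RPKM in meiotic cells (log2 −4.24 ± 0.069). Further falls were those of chr18:67187688-67247676, with 1.26 and 1.23 RPKM in post-meiotic cells against 30.0 and 28.4 RPKM in meiotic cells (log2 −4.55 ± 0.064), and of the neighbours chr10:86022748-86058773 (log2 −4.60 ± 0.079) and chr10:86060746-86091767 (log2 −4.77 ± 0.093). The last was the most decreased cluster of at least 1 RPKM. In contrast, chr4:135177931-135190539, over 1700029M20Rik, kept more of its level with 10.6 and 9.71 RPKM in post-meiotic cells against 39.6 and 40.2 RPKM in meiotic cells (log2 −1.97 ± 0.053).

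The strongest 2 clusters fell by little. Cluster chr17:49247411-49255034 had 47.6 and 46.6 RPKM in post-meiotic cells against 61.3 and 64.2 RPKM in meiotic cells (log2 −0.41 ± 0.045) and chr19:5801022-5808025, which overlaps the nuclear RNA gene Malat1, 31.5 and 31.5 RPKM in post-meiotic cells against 43.1 and 40.2 RPKM in meiotic cells (log2 −0.40 ± 0.05), both within the log2 limit of 0.5. Cluster chr2:130410808-130418751, over Ubox5, rose with 23.5 and 25.5 RPKM in post-meiotic cells against 10.0 and 11.8 RPKM in meiotic cells (log2 1.17 ± 0.078). The other 3 called higher lie over genes as well, over Lman2l (log2 0.99 ± 0.082), Rpl32 and Cand2 (log2 0.84 ± 0.057) and Pigm (log2 0.78 ± 0.058). Of the 31 clusters of at least 1 RPKM covered by more than 50% by 1 annotated gene, 22 were called lower (median −2.26), and of the other 76, 67 (median −3.13). Reads over protein-coding genes and pseudogenes were removed before counting, but Malat1 is annotated as a processed transcript, a class not among those removed. Whether reads of the overlapping genes entered the counts was not tested.

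**Figure D4:**
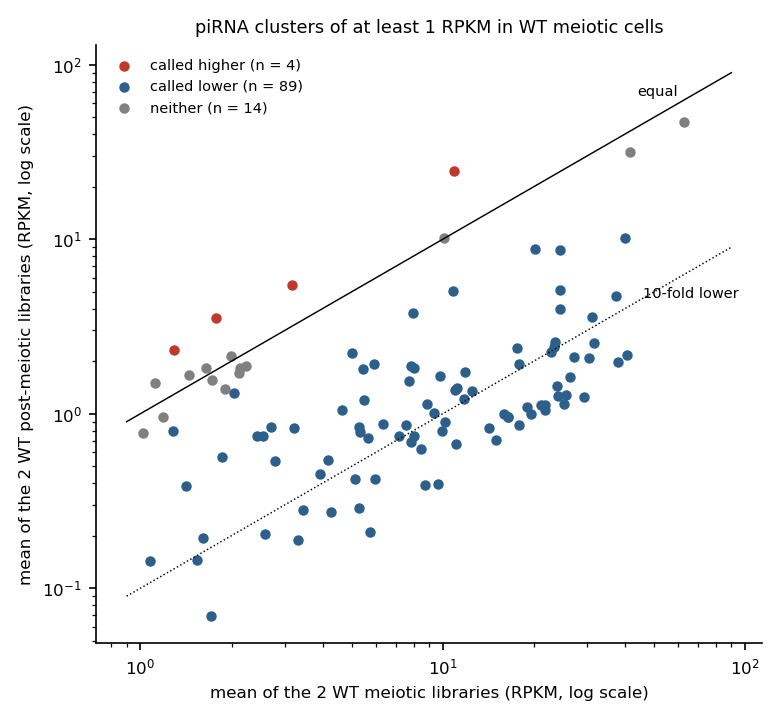
Mean level of the 107 piRNA clusters of at least 1 RPKM in WT meiotic cells, with WT post-meiotic cells on the vertical and WT meiotic cells on the horizontal axis (RPKM, log scales). Most points lie below the line of equal levels and many below the 10-fold line, 89 are called lower, and the 2 strongest clusters lie close to equal.

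Genes on the X chromosome were higher in post-meiotic cells far more often than lower. Of 966 tested X genes 458 rose (47.4%) and 31 fell (3.21%), and 194 were called higher and 12 lower. Over 19418 autosomal genes 28.7% rose and 33.9% fell. The median change was 0.65 on X (0.52 with library totals) and −0.03 on the autosomes. X genes took 1.36% and 1.41% of the gene counts in post-meiotic libraries, against 0.74% and 0.77% in meiotic libraries, so the chromosome stayed a minor source of RNA at both stages.

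Of 35 X-linked genes of spermatids and multicopy families 21 rose and none fell (median 0.79). Akap4 alone, given above, made up most of their summed level of 5060 and 5316 CPM in post-meiotic cells, against 1907 and 2094 CPM in meiotic cells. Actrt1, an actin-related protein of the sperm head, had 48.0 and 50.7 CPM in post-meiotic cells against 18.3 and 21.7 CPM in meiotic cells (log2 1.30 ± 0.07). Ssxb2 (log2 1.58 ± 0.14) and Ssxb3 (log2 1.59 ± 0.16) belong to a family of near-identical copies, so the level of each copy is uncertain. Outside the list Tspan6, a tetraspanin, had 163 and 170.4 CPM in WT post-meiotic cells, against 50.7 and 52.2 CPM in WT meiotic cells (log2 1.70 ± 0.062, edgeR adjusted p = 8.37e-15). Other large X increases were of low genes, among them the fibroblast matrix gene Bgn with 5.18 and 4.14 CPM in post-meiotic cells against 0.847 and 0.645 CPM in meiotic cells (log2 2.64 ± 0.23) and the phagocyte oxidase Cybb with 1.74 and 1.49 CPM in post-meiotic cells against 0.369 and 0.119 CPM in meiotic cells (log2 2.69 ± 0.30).

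The largest X decreases were also low. Tmem35 had 1.79 and 1.29 CPM in post-meiotic cells against 8.30 and 7.18 CPM in meiotic cells (log2 −2.32 ± 0.19), Apln, a peptide hormone, 0.998 and 0.770 CPM in post-meiotic cells against 4.08 and 3.94 CPM in meiotic cells (log2 −2.17 ± 0.19), and Tmem164 3.12 and 2.33 CPM in post-meiotic cells against 10.8 and 9.33 CPM in meiotic cells (log2 −1.88 ± 0.15). On the Y chromosome 9 of 13 tested genes rose and none fell (median 0.76). Eif2s3y, a translation factor needed by spermatogonia, had 81.5 and 85.3 CPM in WT post-meiotic cells, against 47.0 and 51.0 CPM in WT meiotic cells (log2 0.77 ± 0.054, edgeR adjusted p = 9.15e-11). The deubiquitinase Usp9y had 32.6 and 33.0 CPM in post-meiotic cells against 17.1 and 17.3 CPM in meiotic cells (log2 0.93 ± 0.064), and the zinc finger genes Zfy1 (log2 0.81 ± 0.10) and Zfy2 (log2 0.76 ± 0.095) rose by similar amounts. Sry, the sex-determining gene, passed at very low levels (0.435 and 0.233 CPM in post-meiotic cells against 0.0924 and 0.170 CPM in meiotic cells, log2 1.37 ± 0.44, edgeR adjusted p = 0.00942), but not without WT meiotic replicate 1 (log2 0.97) or WT post-meiotic replicate 1 (log2 0.85). The other 4 did not pass.

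**Figure D5:**
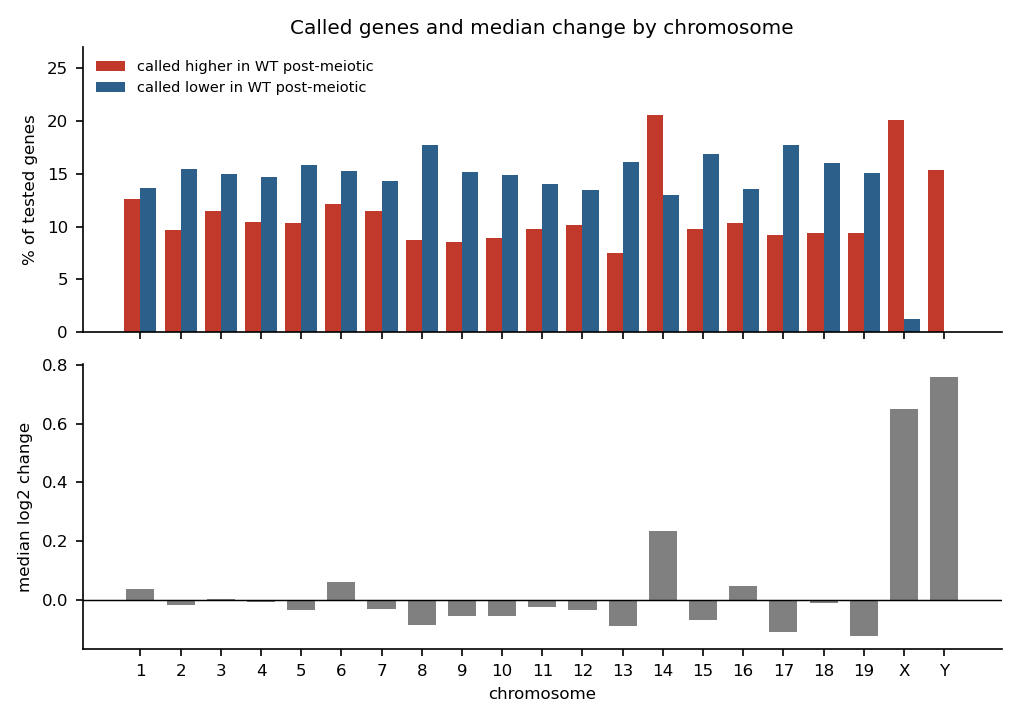
Percent of tested genes called higher (red) and called lower (blue) in WT post-meiotic cells (upper panel) and median log2 change (lower panel) by chromosome. X has 20.1% called higher and 1.24% called lower, Y a median of 0.76, and chromosome 14 stands out among the autosomes with 20.6% called higher.

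Many X genes have an autosomal relative used in germ cells, often a retrocopy. In 13 of 20 such pairs the relative held over 90% of the pair's level per kilobase of exon at both stages, and its share was lower in post-meiotic cells in 14. That count has no minimum difference, and some were small, such as Rpl39l with 98.5% in post-meiotic and 98.7% in meiotic cells. The X gene Gyk is paired with both Gykl1 and Gk2. Only unique alignments were counted, so a gene with near-identical copies can lose reads, and the shares are uncertain. Pgk2, the autosomal phosphoglycerate kinase, had 1589 and 1624 CPM in post-meiotic cells against 671 and 718 CPM in meiotic cells while its X-linked parent Pgk1 had 7.76 and 7.54 CPM in post-meiotic cells against 6.22 and 6.41 CPM in meiotic cells and did not pass (log2 0.28 ± 0.093, edgeR adjusted p = 0.0123). Per kilobase, Pgk2 was 99.7% of the pair in post-meiotic and 99.4% in meiotic cells. Cstf2, an X-linked polyadenylation factor, rose with 97.0 and 111 CPM in post-meiotic cells against 57.1 and 62.1 CPM in meiotic cells (log2 0.80 ± 0.063) as its retrocopy Cstf2t fell with 40.7 and 41.5 CPM in post-meiotic cells against 113 and 117 CPM in meiotic cells (log2 −1.48 ± 0.056), so that Cstf2t made up 49.1% of the pair in post-meiotic cells and 82.5% in meiotic cells. Zfa, the autosomal relative of the zinc finger gene Zfx, fell with 2.43 and 2.20 CPM in post-meiotic cells against 18.0 and 14.7 CPM in meiotic cells (log2 −2.82 ± 0.12), and its share was 25.8% in post-meiotic and 73.7% in meiotic cells. Taf7, a general transcription factor subunit, fell (log2 −1.45 ± 0.074) and X-linked Taf7l rose (log2 0.46 ± 0.058), with a share for Taf7 of 17.2% in post-meiotic and 44.0% in meiotic cells.

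In 28 pairs of a general form and a form used in germ cells, the second had the higher share in post-meiotic cells in 18 and the lower in 10. These counts have no minimum difference either, and the limit of unique alignments holds here as well. Gapdhs was 99.2% of the pair with Gapdh per kilobase in post-meiotic and 97.2% in meiotic cells, and Gapdh itself had 10.6 and 9.35 CPM in post-meiotic cells against 10.1 and 10.3 CPM in meiotic cells and did not pass (log2 −0.03 ± 0.096, edgeR adjusted p = 0.818). Capza3 was 75.9% of its pair in post-meiotic and 47.6% in meiotic cells, beside Capza1, which fell (log2 −0.62 ± 0.047). Oxct2a was 89.2% of its pair in post-meiotic and 75.7% in meiotic cells, beside Oxct1 (log2 0.36 ± 0.059). Calr3 was 42.7% of its pair in post-meiotic and 19.5% in meiotic cells, beside Calr, which fell slightly (log2 −0.39 ± 0.043). Gtf2a1, a general transcription factor, fell with 34.0 and 32.0 CPM in post-meiotic cells against 101 and 94.4 CPM in meiotic cells (log2 −1.56 ± 0.06) while its germ cell form Gtf2a1l rose (log2 0.36 ± 0.052). Among the 10 pairs that went the other way, Eno4 was 48.5% of its pair with Eno1 in post-meiotic and 57.4% in meiotic cells. Psma8 was 90.5% of its pair with Psma7 in post-meiotic and 97.1% in meiotic cells.

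Genes that cells in general use were mixed. Proteasome and ubiquitin genes fell at 26 and rose at 17 of 52 (median −0.17). Of them 6 were called lower (11.5%) and 5 higher (9.62%), beside 14.5% and 11.0% of all genes. Psma8, the germ cell core subunit of spermatocytes, fell with 48.1 and 44.0 CPM in WT post-meiotic cells, against 247 and 253 CPM in WT meiotic cells (log2 −2.44 ± 0.059, edgeR adjusted p = 1.14e-17), and core or lid subunits such as Psmd14 (log2 −1.48 ± 0.064) and Psma2 (log2 −1.26 ± 0.069) were called lower too. In contrast Psma6 (log2 1.02 ± 0.051) and the testis ubiquitin ligases Rnf133, with 469 and 501 CPM in post-meiotic cells against 164 and 181 CPM in meiotic cells (log2 1.49 ± 0.056), and Klhl10 (log2 1.16 ± 0.05) were called higher. Of 51 nuclear transport genes 28 fell and 16 rose, with 11 called lower and 1 higher. Rangap1, the activator of the Ran GTPase, had 592 and 613 CPM in post-meiotic cells against 248 and 262 CPM in meiotic cells (log2 1.24 ± 0.049, edgeR adjusted p = 1.27e-14), against falls of the import receptors Tnpo2 (log2 −1.85 ± 0.06) and Kpna3 (log2 −1.78 ± 0.078) and of the pore protein Tpr, with 94.1 and 97.1 CPM in post-meiotic cells against 308 and 292 CPM in meiotic cells (log2 −1.65 ± 0.053).

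Of 84 cytosolic ribosomal protein genes 34 fell (40.5%) and 8 rose (median −0.15), and with library totals 52 fell and 3 rose. The 5 called lower (5.95%, beside 14.5% of all genes) were led by Rpl10a (log2 −1.64 ± 0.098) and Rpl14 (log2 −1.56 ± 0.057). Mitochondrially encoded genes fell at 11 of 15 and none rose (median −1.05), though the ribosomal RNA mt-Rnr2, the one of them with the most reads, did not pass (5820.2 and 5294 CPM in post-meiotic cells against 4523 and 3444 CPM in meiotic cells, edgeR adjusted p = 0.101). By class of transcript, 30.0% of 17152 protein-coding genes rose and 35.6% fell. Processed transcripts without a coding frame went the other way, with 41.2% of 1214 risen and 11.9% fallen. Of 824 lincRNAs 171 rose (20.8%) and 200 fell (24.3%), beside 29.6% and 32.4% of all genes tested. None of 103 snoRNAs rose and 21 fell (20.4%), which is also a lower share of falls than over all genes.

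Among genes with at least 200 reads per library at the higher stage and a symbol other than that of a clone or predicted gene, the largest falls outside the lists were of Pou5f2, a POU factor of the testis, with 4.99 and 4.32 CPM in WT post-meiotic cells, against 69.7 and 74.8 CPM in WT meiotic cells (log2 −3.95 ± 0.095, edgeR adjusted p = 6.41e-17), and of Sap30, part of a histone deacetylase complex, with 1.56 and 2.26 CPM in post-meiotic cells against 30.7 and 26.6 CPM in meiotic cells (log2 −3.92 ± 0.12). Next came the sulfotransferase Chst1 with 4.75 and 5.82 CPM in post-meiotic cells against 80.0 and 73.0 CPM in meiotic cells (log2 −3.86 ± 0.088), the zinc finger gene Zfp389 (log2 −3.75 ± 0.13) and the histone gene Hist2h2ab (log2 −3.73 ± 0.21). The 10 largest rises in that set were all of genes below 40 CPM, and 6 of them belong to the lists of fibroblasts, leukocytes and red cells. The other 4 were Adamts5, a matrix protease (log2 3.98 ± 0.41), Thbd, an endothelial receptor (log2 3.55 ± 0.25), Fgl2, with 38.5 and 27.3 CPM in post-meiotic cells against 3.63 and 3.31 CPM in meiotic cells (log2 3.24 ± 0.31), and Fhl2 (log2 3.12 ± 0.21). Among the 10 most read genes of post-meiotic cells, Akap12, a kinase anchor, had 4674 and 4791 CPM in post-meiotic cells against 2073 and 2117 CPM in meiotic cells (log2 1.18 ± 0.046) and the flippase Atp8b3 3779.9 and 3873 CPM in post-meiotic cells against 2535 and 2660.3 CPM in meiotic cells (log2 0.56 ± 0.045). The 10 most read genes took 6.18% and 5.87% of gene counts in post-meiotic libraries and 5.34% and 5.31% in meiotic libraries.

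Chromosome 14 had 165 of 802 genes called higher (20.6%), the highest share of any autosome. Part of the excess lay in 2 stretches chosen after the values were seen. From 3 to 8 Mb 39 of 55 genes were called higher and none lower (median 1.53), and 52 of the 55 are predicted genes. From 41 to 45 Mb 36 of 64 were called higher and 11 lower (median 1.15), with 52 predicted genes. The rest of the chromosome had 90 of 683 called higher (13.2%, still above the 10.5% of all autosomal genes) and 93 lower. Such predicted genes can be near-identical copies that share reads, so the count of separate genes is uncertain.

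Repeat families were counted apart and scaled by the total of repeat reads (RPM, with that total as the base), which came to 15.7 and 14.9 per 100 gene counts in post-meiotic libraries and 19.5 and 18.8 in meiotic libraries. Of 967 families 109 (11.3%) were called higher and 112 (11.6%) called lower at a log2 change over 0.5. Scaled by gene library sizes instead, 52 were called higher and 180 lower. Rodent endogenous retroviruses (IAP, RLTR, RMER and like) had 32 of 184 called lower and 11 higher, LINE-1 families 4 and 7 of 109, and SINE families 2 and 0 of 38. With gene library sizes these counts were 50 and 4, 8 and 2, and 6 and 0.

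The largest falls and rises kept their directions with gene library sizes. MLT1I-int, the internal part of a MaLR element, had 14.6 and 14.2 RPM in post-meiotic cells against 287 and 274 RPM in meiotic cells (log2 −4.28 ± 0.092). MER68-int had 19.4 and 21.8 RPM in post-meiotic cells against 196 and 188 RPM in meiotic cells (log2 −3.22 ± 0.09) and LTR68 23.1 and 17.3 RPM in post-meiotic cells against 177 and 177 RPM in meiotic cells (log2 −3.12 ± 0.09). MER110 had 10.4 and 16.9 RPM in post-meiotic cells against 82.3 and 76.4 RPM in meiotic cells (log2 −2.56 ± 0.11). IAPLTR3-int, an internal part of intracisternal A particles, was the most read of the 5 largest falls with 668 and 685 RPM in post-meiotic cells against 4018 and 3745 RPM in meiotic cells (log2 −2.52 ± 0.054). The 5 families above were lower in both post-meiotic libraries. Of the 5 largest rises 4 were of tandem repeats, with (CCCTAG)n at 819 and 882 RPM in post-meiotic cells against 251 and 296 RPM in meiotic cells (log2 1.64 ± 0.061), and (CTGTG)n at 567 and 607 RPM in post-meiotic cells against 205 and 216 RPM in meiotic cells (log2 1.48 ± 0.061). Which single copies gave these reads was not resolved. The most read families, 7SLRNA (log2 −0.04 ± 0.055) and the SINE B3 (log2 −0.11 ± 0.051), did not pass but fell with gene library sizes, and 7SK (log2 −0.27 ± 0.054) passed only the p limit.

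RNA of other testis cells differed between the fractions. Of 19 genes of Leydig cells, the steroid cells between the tubules, 18 fell and 1 rose. Their summed level was 148 and 141 CPM in post-meiotic libraries and 508 and 459.7 CPM in meiotic libraries. Cyp17a1, the steroid lyase, had 13.8 and 8.46 CPM in post-meiotic cells against 134 and 109 CPM in meiotic cells (log2 −3.44 ± 0.38, edgeR adjusted p = 0.00109). Star, the cholesterol carrier, had 6.08 and 4.21 CPM in post-meiotic cells against 43.7 and 33.3 CPM in meiotic cells (log2 −2.90 ± 0.31), and the hormone gene Insl3 0.161 and 0.251 CPM in post-meiotic cells against 4.03 and 2.55 CPM in meiotic cells (log2 −4.01 ± 0.35). The one that rose, Scarb1 (0.61), is a lipoprotein receptor named after its value was seen. Leydig markers were thus higher in both meiotic libraries and above 0 in both post-meiotic ones.

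RNA of genes of fibroblasts, leukocytes and red cells stood higher in the post-meiotic fraction. Peritubular and fibroblast genes rose at 24 of 28 and none fell, with a sum of 755 and 691 CPM in post-meiotic against 322 and 316 CPM in meiotic libraries. Dcn had 22.7 and 19.9 CPM in post-meiotic cells against 1.14 and 1.09 CPM in meiotic cells (log2 4.26 ± 0.37, edgeR adjusted p = 0.000303), and the muscle genes Acta2 (32.8 and 21.7 CPM in post-meiotic cells against 11.1 and 10.1 CPM in meiotic cells) and Myh11 (42.4 and 32.6 CPM in post-meiotic cells against 13.6 and 10.7 CPM in meiotic cells) rose too. Leukocyte genes rose at 22 and fell at 1 of 26, Fcgr3 (−0.49, named after its value was seen), with a sum of 146 and 147 CPM in post-meiotic and 74.1 and 77.3 CPM in meiotic libraries. Cd68, a macrophage protein, had 1.42 and 1.20 CPM in post-meiotic cells against 0.277 and 0.339 CPM in meiotic cells (log2 2.09 ± 0.30), and Cd74, the invariant chain, rose more (log2 3.73 ± 0.27). All 5 red cell genes rose, with a sum of 12.1 and 11.4 CPM in post-meiotic and 2.49 and 2.70 CPM in meiotic libraries.

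Genes of other cells differed less. Endothelial genes summed to 84.2 and 81.8 CPM in post-meiotic and 52.8 and 48.2 CPM in meiotic libraries, with 7 of 17 risen and 1 fallen, Sox18 (−1.03), and neither Pecam1 (0.10) nor Cdh5 (0.48) passed. Sertoli cell genes summed to 324 and 291 CPM in post-meiotic and 379.5 and 349 CPM in meiotic libraries, with 3 risen, up to Slc38a5 (2.64), and 5 fallen, down to Nr5a1 (−1.30), of 24, and Sox9 was under 0.7 CPM in each library. Spermatogonial genes summed to 670.1 and 660.1 CPM in post-meiotic and 679 and 691 CPM in meiotic libraries. Of 27 tested 10 fell and 3 rose, up to Lhx1 (1.36), and Id4 fell most with 6.23 and 5.95 CPM in post-meiotic cells against 52.6 and 51.7 CPM in meiotic cells (log2 −3.10 ± 0.085). None of the 17 defining markers looked at was at 0 in any WT library. The part of these cells in the germ cell results was not tested.

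Against the transition in KO cells, which shares no library with this one, few WT changes differed. At an adjusted p under 0.01 and a log2 difference over 1 the WT change was more positive at 1 gene (0.00490%) and more negative at 102 (0.500%) of 20412. The first is the predicted gene Gm4204, named after its value was seen, which was under 0.6 CPM in every WT library. Without KO post-meiotic replicate 1 the 102 became 14, and without WT post-meiotic replicate 2, WT meiotic replicate 1 or KO meiotic replicate 2 they became 30, 34 and 54. Among the genes named above, Pou5f2 (difference −1.21), Mll2 (−1.85) and Tmem164 (−1.02) were more negative in WT. At a log2 difference over 0.5, 60 of the 402 piRNA clusters tested (14.9%) differed, all 60 with the more negative change in WT cells. Of the 107 set apart by their level in WT meiotic cells, which favours such a difference, 58 differed, and of the 102 set apart by the mean of all 8 libraries, 55. Those 102 share 100 clusters with the 107, so the second count is not a separate check.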

How the data were processed

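Whole-number counts per gene, per piRNA cluster and per repeat family were used as deposited. According to the submitters' processing notes and the methods of the study, total RNA was sequenced with a strand-marking kit, base calls were made with bcl2fastq 2.17.1.14, mm9 alignments came from TopHat2 2.0.14 (using Bowtie2 2.1.0), and unique ones were counted with HTSeq 0.6.1. For clusters the authors removed reads over protein-coding genes, pseudogenes, ribosomal RNA and a few other classes, but not over all annotated genes. Whether gene counts used strand is not given in the sources used here, so overlapping and antisense genes cannot be told apart. Columns holding the authors' DESeq2 1.14.1 fold changes, log2 values and p-values were not used. 15 symbols turned into dates were restored.

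Counts were fitted for all features over 8 libraries with edgeR 4.0.16 (quasi-likelihood, TMM, Benjamini-Hochberg adjustment; limma 3.58.1, R 4.3.3), with DESeq2 1.42.0 as an alternative. Limits were an adjusted p of 0.01 with a log2 change of 1 for genes and 0.5 for clusters and repeats. Clusters were fitted with the genes, and repeats, with at least 5 RPM in either WT stage, on repeat totals. The repeat fit borrows its spread across families, so its p-values are not printed, though the repeat calls rest on them.

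Gene lists, members and limits were chosen with earlier results of these data known. Named genes were the up to 6 largest called changes per list and direction (at least 50 reads), fixed markers, both genes of each pair, the 10 largest changes each way (at least 200 reads, predicted genes passed over), the 8 largest each way on X, every Y gene and the 10 most read. Of clusters they were the 5 highest, the 5 largest decreases and the 5 smallest decreases or increases, and of repeats the 5 largest changes each way and the 5 most read. Only part of these are printed, and some items are not reported here. Counts were 58535698 to 66734320 per WT library. For genes with few reads, such as Sry, Cybb and Insl3, sampling error is a large part of the spread.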

Additional observations from a re-analysis of the deposited data

Results flagged for a closer look

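Some WT changes were more negative than the KO change between the same stages by a direct test of the difference (edgeR interaction term, adjusted p under 0.01 over all features). Values are the log2 change in WT cells minus that in KO cells. Among genes of the testis, Pou5f2 differed by −1.21 and Mll2 by −1.85. On X, Aff2 differed by −1.62 and Tmem164 by −1.02. In Leydig cell genes the differences were −1.20 for Hsd17b3, −1.69 for Klk1b21 and −2.06 for Klk1b24, all of which fell in both genotypes. In genes of blood and fibroblasts, which rose in both, they were −1.98 for Hbb-b1 and −1.07 for Col1a1.

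Of the piRNA clusters named in the report, chr10:86060746-86091767 differed by −1.07, chr10:86022748-86058773 by −0.993, chr12:99617211-99694189 by −0.903, chr18:67187688-67247676 by −0.852 and chr6:127728022-127792044 by −0.748. The cluster chr2:127512779-127532611 differed by −0.745. Of the repeat families, MER68-int differed by −0.844, MLT1I-int by −0.645 and IAPLTR3-int by −0.542. All of these clusters and families fell in both genotypes, by more in WT cells.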

How the results depend on the processing

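Alternatives were other scalings, DESeq2, no filter, WT libraries alone, the replicate block and each library left out. The 15 named clusters kept their direction and their side of the adjusted p limit in all 150 alternative values. Of 1680 values for 168 named genes 1655 did. For the 15 named repeat families 137 of 150 did. The other values, from 5 families, were 4 that lost the p limit, 7 that newly passed it and 2 that changed sign. The log2 limit was not part of this check, so a gene just over it may lose its call under another scaling. Without a fold limit 6047 genes rose and 6615 fell. For the difference between WT and KO transitions, 1 gene more positive in WT became 2 with RLE size factors, 9 without a filter, 5 with the replicate block and 0 to 4 with a library left out. The 102 more negative became 218 without a filter, 175 with the replicate block and 14 to 143 with a library left out. Clusters called higher were 28 with DESeq2 and 30 to 39 with a library left out, against 46. Gene library sizes gave 52 repeat families called higher and 180 lower. The X median was 0.516 with library totals, and the change of Ldhc, which did not pass, became −0.0541. 2 features that did not pass changed sign with a library left out, Gapdh (−0.1143 to 0.0548) and 7SLRNA (−0.1377 to 0.0624). The cause was not tested. Nothing in the labels says that replicate numbers mark shared animals. Same-numbered libraries correlated at 0.109 in their deviations from the group means, and the replicate block gave 2263 genes called higher and 2962 lower, with Dnahc8 and Tekt2 no longer past the limit. Prss37 lost its call when only WT libraries were fitted, and Sry under 5 alternatives. At 2 libraries a group, smaller differences may have gone undetected.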
